A study of Mus musculus with 8 samples.

Results

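The genes compared here were 9 components and regulators of the complement system, out of 24625 rows measured in lung neutrophil preparations from wild type mice with and without pneumococcal pneumonia. They were chosen by name: C3, C2, Cfb, C4b, Serping1, Cfd, Cd55, Cd59a and Cr1l. Each symbol matched 1 row, so all 9 were measured and none was lost to a filter. Mice were aged 6 to 12 weeks by their labels, a wider range than the study's methods give. The methods name bought female C57BL/6J mice and colonies generated, and say that the mice studied were matched for age and sex. Mice were given an intratracheal instillation, directed to the left lung, of 2.3 µl for each gram the mouse weighed. It held either Streptococcus pneumoniae of serotype 19 (SP) or only the buffered saline vehicle (PBS). After 24 h, cells carrying Ly6G, a surface protein of mouse neutrophils, were drawn from lung digests with magnetic beads. There were 4 SP and 4 PBS samples, each on its own array. The paper describes each as a sample from a mouse, which the labels do not state, and the p-values measure the spread between these samples. The study's methods give a purity by stained slides for the SP preparations and none for the PBS preparations.

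Complement is a set of plasma and membrane proteins that mark microbes for uptake and can lyse them. The classical and lectin pathways cleave C4 and C2, the alternative pathway uses factor B (Cfb) and factor D (Cfd), and all of them cut C3 by a convertase. Host cells carry inhibitors that dismantle the convertase (Cd55 and, in rodents, Crry, encoded by Cr1l) or block the lytic pore (Cd59a), while the C1 inhibitor, encoded by Serping1, restrains the first proteases in plasma. C3 is the chief opsonin against pneumococci, whose capsule hinders its deposition.

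SP preparations differed from PBS preparations mostly in 1 rise and 4 falls. Cfb was 5.98-fold higher in SP, while C4b was 4.94-fold, Cd55 4.77-fold, Cd59a 3.65-fold and C2 3.18-fold lower. C3, Serping1, Cfd and Cr1l were not called. A gene was called where limma's p, after Benjamini-Hochberg adjustment over all 24625 rows, did not exceed 0.05. Over all rows 44.1% were called, 21.5% as higher and 22.6% as lower, so calls for 5 of 9 genes lie near that background. All 5 also differed at least 2-fold, while 6.37% of all rows were called and 2-fold or more higher, and 11.3% called and 2-fold or more lower. The median difference over the 9 genes was -0.66 log2 units, beside 0.10 over all rows. That background includes many dim rows, whereas 8 of the 9 genes had means at or above the median row mean. Leaving out rows below that median kept about as many rows as it dropped. Of the rows kept, 7424 were called, among them 2491 falls and 1442 rises of 2-fold or more. The median difference was then -0.15, so calls and large falls were more frequent among brighter rows than over all rows. These are bulk preparations, in which fewer cells of a type and less RNA per cell cannot be told apart.

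**Figure D1:**
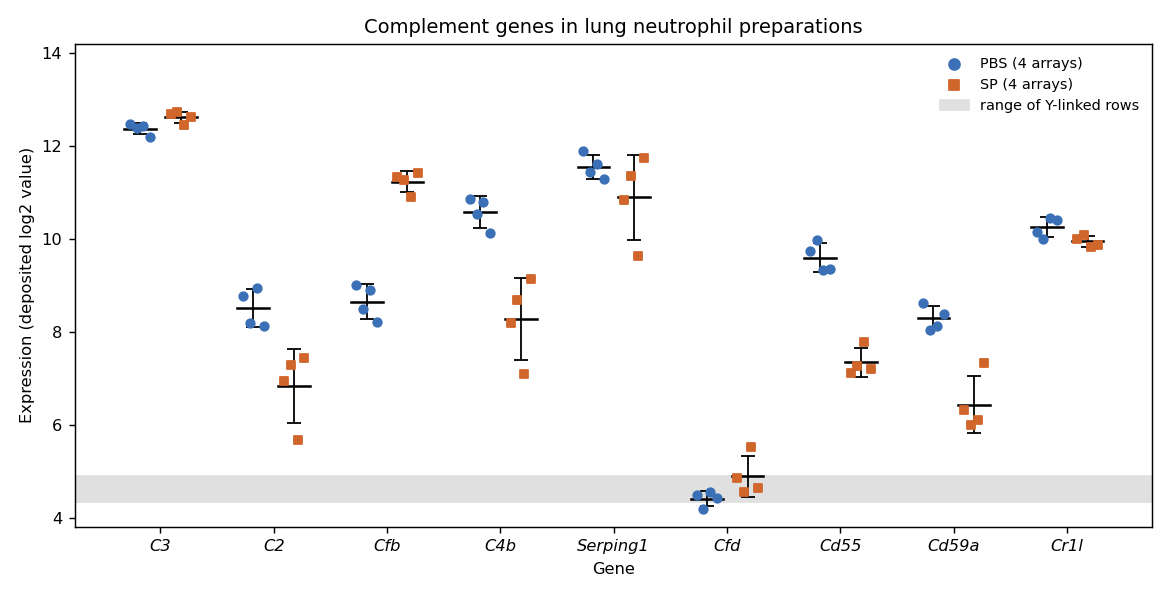
Deposited log2 value (y axis) of each of the 9 genes (x axis) on the 4 PBS arrays (blue circles) and the 4 SP arrays (orange squares), with the mean and SD of each group in black. In grey is the range of 3 Y-linked genes, 4.33 to 4.90, as a measure of background, since the methods name only female mice. Cfb sits higher in SP without overlap, C2, C4b, Cd55 and Cd59a sit lower without overlap, and Cfd lies at or near background on every array but SP replicate 3.

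Sequence upstream of the start site is shown for the neighbouring decay-accelerating factor genes, Cd55 and Cd55b, and for Cd59a. They were picked for their result, as the 3 of 6 membrane regulators that were called lower. The other 3, Cd59b, Cr1l and Cd46, were not called. Of the 9 genes, 5 had a window in RefSeq's promoter table (build GRCm38.p6), namely C3, Cfd, Cd55, Cd59a and Cr1l. The 250 bases before the start lie at chr1:130462745-130462994 (minus strand) for Cd55, chr1:130423044-130423293 (minus strand) for Cd55b and chr2:104095551-104095800 (plus strand) for Cd59a. Capitals mark matches, on either strand, to the letters GGGNNNNNCC (the form of an NF-κB site) and GAAANNGAAA (the form of an interferon-stimulated response element).
Cd55: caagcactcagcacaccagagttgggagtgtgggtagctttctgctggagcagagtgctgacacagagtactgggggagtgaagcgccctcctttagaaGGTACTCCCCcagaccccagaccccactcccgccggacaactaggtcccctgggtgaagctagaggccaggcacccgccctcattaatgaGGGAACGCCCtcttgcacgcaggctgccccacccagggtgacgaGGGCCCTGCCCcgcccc
Cd55b: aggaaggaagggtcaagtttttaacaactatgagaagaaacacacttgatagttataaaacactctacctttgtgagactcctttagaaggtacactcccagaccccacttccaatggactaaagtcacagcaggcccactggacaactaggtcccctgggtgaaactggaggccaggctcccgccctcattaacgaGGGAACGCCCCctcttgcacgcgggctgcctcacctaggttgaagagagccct
Cd59a: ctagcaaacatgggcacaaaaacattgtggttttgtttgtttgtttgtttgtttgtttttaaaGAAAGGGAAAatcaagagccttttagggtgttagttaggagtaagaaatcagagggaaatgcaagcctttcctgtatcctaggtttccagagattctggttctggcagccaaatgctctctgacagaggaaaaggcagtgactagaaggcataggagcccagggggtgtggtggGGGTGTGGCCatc
In a global alignment 179 bases of the Cd55 and Cd55b windows were identical (71.6% of 250), against 139 (55.6%) for Cd55 with Cr1l and 144 (57.6%) for Cd55 with Cd59a. The NF-κB form occurred in all 6 windows read, those of C3, Cfd, Cd55, Cd59a, Cr1l and Cd55b, genes that were lower or not called, and in 45.8% of 32851 windows of the same length. GAAANNGAAA occurred in the Cd59a window and in 2.98% of all windows. Further searches, also on both strands, were for TTCNNNGAA (a STAT site, in 7.02% of windows), TGANTCA (an AP-1 site, in 6.75%), neither of which occurred in the 6 windows, and TTNNGNAA (a C/EBP site, in 36.8%), which occurred only in that of C3 at 3 places. The letters of some searches can overlap each other, and a match is a description of sequence only.

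The alternative pathway was compared first. Cfb encodes the protease subunit of its C3 convertase. Its values were 9.01, 8.48, 8.91 and 8.21 log2 units on PBS arrays 1 to 4 and 11.33, 11.26, 10.91 and 11.43 on SP arrays 1 to 4. Every SP value lay above every PBS value, and the gap between the groups exceeded the range within either. PBS arrays averaged 8.65 ± 0.37 and SP arrays 11.23 ± 0.23 (SD, n = 4), a difference of 2.58 log2 units with a standard error of 0.19 (adjusted p = 3.25e-05 by limma) and a 95% interval of 4.39- to 8.13-fold. Leaving out any 1 array gave 2.43 to 2.70.

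Cfd encodes factor D, also known as adipsin, which cleaves factor B once it is bound to C3b. Its log2 values were 4.48, 4.18, 4.54 and 4.42 in PBS and 4.85, 4.55, 5.51 and 4.63 in SP. The groups did not overlap, but all values apart from SP replicate 3 lay at or below the top of the range of the Y-linked genes. The difference of 0.48 (95% interval 0.01 to 0.95) was not called (adjusted p = 0.0868 by limma), and it was 0.27 without SP replicate 3 (0.0904). It was called with the replicate block (0.48, adjusted p = 0.0486 by limma), with array weights (0.31, 0.0499) and with the arrays centred on their medians (0.76, 0.0134).

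C3 encodes the protein on which all pathways converge. Across arrays its log2 values were 12.48, 12.40, 12.43 and 12.20 in PBS and 12.68, 12.73, 12.46 and 12.62 in SP. The groups overlapped by a single pair, SP replicate 3 lying below PBS replicate 1. The difference of 0.25 ± 0.09 (SE, n = 4 a group) was 1.19-fold and not called (adjusted p = 0.0583 by limma), and its 95% interval ran from 0.04 to 0.46 log2 units, that is up to 1.38-fold. This small difference depended on the scaling. It was 0.53 (0.00211) with centred arrays, 0.34 (0.00882) with array weights, 0.30 (0.0226) without SP replicate 3 and 0.03 (0.853) after another quantile normalization.

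**Figure D2:**
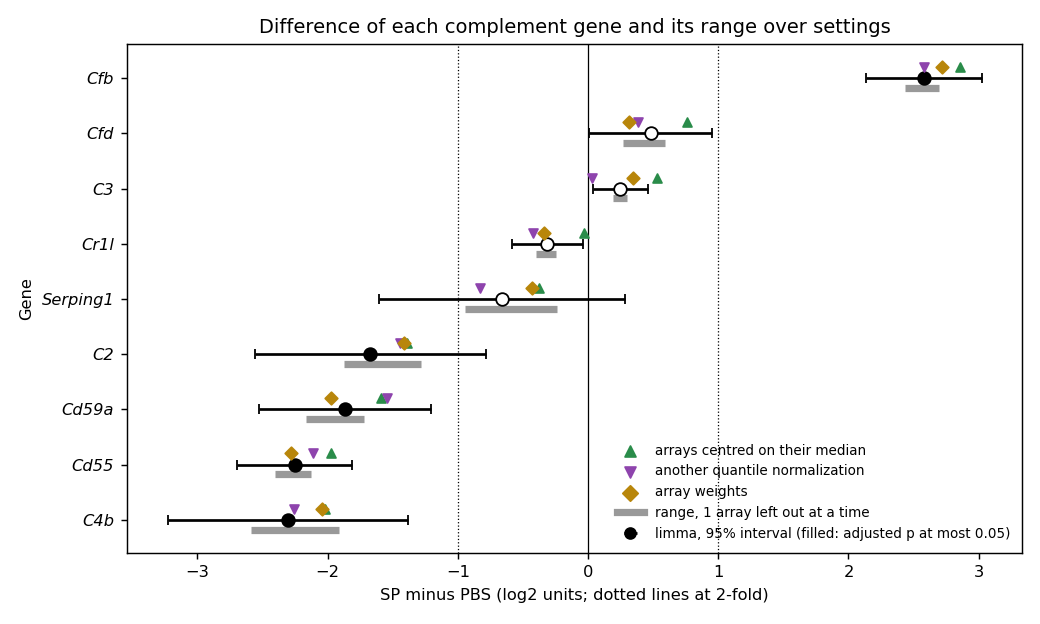
SP minus PBS difference (x axis, log2 units) for each gene (y axis) with its 95% interval by limma (black, filled where called), under other scalings and array weights (coloured) and as the range when 1 array is left out at a time (grey bars). The called differences, of Cfb, C2, Cd59a, Cd55 and C4b, stay beyond 2-fold under each setting plotted. Those not called vary widely for their size. C3 runs from 0.03 to 0.53, Cr1l from -0.43 to -0.03, Cfd from 0.27 to 0.76 and Serping1 from -0.95 to -0.24.

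Components of the classical pathway convertase were lower in SP. C4b encodes complement C4, whose fragment anchors the convertase. Values on the log2 scale were 10.87, 10.54, 10.80 and 10.12 in PBS and 8.19, 8.69, 7.09 and 9.13 in SP. All SP values lay below all PBS values, with SP replicate 3 lowest. The means were 10.58 ± 0.34 and 8.28 ± 0.88 (SD, n = 4 a group), and C4b fell by 2.31 log2 units (adjusted p = 0.00229 by limma), or by 1.91 without SP replicate 3.

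C2 encodes the protease subunit of the same convertase and is the counterpart of factor B. Its log2 values were 8.76, 8.18, 8.95 and 8.13 in PBS and 6.95, 7.28, 5.67 and 7.44 in SP. The groups did not overlap, and SP replicate 3 was again the lowest. C2 fell by 1.67 log2 units (standard error 0.39, adjusted p = 0.00914 by limma), or by 1.28 without SP replicate 3. C2 and Cfb are neighbours in RefSeq's gene order, with no protein-coding gene between them, and differed in opposite directions. The row of C4a, the close relative of C4b, was not called (-0.28 log2 units, adjusted p = 0.0863 by limma). Related genes of this kind (C4a and C4b, Cd55 and Cd55b, Cd59a and Cd59b) may share probes or cross-hybridise, which was not tested.

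Serping1 encodes the C1 inhibitor, which inactivates C1r, C1s and the lectin pathway proteases. Its log2 values were 11.89, 11.44, 11.60 and 11.28 in PBS and 10.83, 11.36, 9.63 and 11.75 in SP. The groups overlapped, with SP replicate 4 above 3 of the 4 PBS arrays and SP replicate 3 far below all others. The difference of -0.66 was not called (standard error 0.41, adjusted p = 0.206 by limma) and was -0.24 without SP replicate 3. Its 95% interval, -1.60 to 0.28, leaves a fall of more than 2-fold possible.

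Membrane inhibitors differed among themselves. Cd55 encodes decay-accelerating factor. Its log2 values were 9.73, 9.97, 9.33 and 9.35 in PBS and 7.11, 7.26, 7.79 and 7.20 in SP. The groups stood far apart, and SP replicate 3 was the highest of the SP arrays, unlike for C4b and C2. Cd55 fell by 2.25 log2 units (adjusted p = 6.06e-05 by limma), the means being 9.59 ± 0.31 for PBS and 7.34 ± 0.30 for SP (SD, n = 4), with a 95% interval of 3.51- to 6.49-fold and a range of -2.40 to -2.13 without any 1 array. Its neighbour Cd55b, whose upstream sequence is printed above, was 2.41-fold lower (adjusted p = 0.00150 by limma).

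Cd59a encodes protectin, which keeps the membrane attack complex from forming a pore. Its log2 values were 8.63, 8.05, 8.13 and 8.39 in PBS and 6.32, 5.99, 6.09 and 7.32 in SP. No values overlapped, and SP replicate 4 lay closest to the PBS arrays. Cd59a fell by 1.87 log2 units (standard error 0.29, adjusted p = 0.00120 by limma). Its relative Cd59b was not called (-0.17, adjusted p = 0.216 by limma).

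Cr1l encodes Crry, a rodent regulator that acts on C3b and C4b at the cell surface. Its log2 values were 10.16, 10.0002, 10.46 and 10.42 in PBS and 9.998, 10.08, 9.84 and 9.87 in SP. The groups overlapped by a single pair, SP replicate 2 lying above PBS replicate 2. The difference of -0.31 (95% interval -0.58 to -0.04) was not called (adjusted p = 0.0624 by limma), was called at -0.43 (0.00654) after another quantile normalization, at -0.34 (0.0175) with array weights and at -0.40 (0.0232) without PBS replicate 2, and was -0.03 (0.858) with centred arrays. The 95% intervals of Cd55 (-2.70 to -1.81) and Cd59a (-2.53 to -1.21) did not reach that of Cr1l, though differences between genes were not tested.

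The 4 SP and 4 PBS values did not overlap for 6 of the 9 genes, against 49.0% of all rows. For these 6, Cfd among them, the exact permutation test (two-sided, 70 arrangements) gave p = 0.0286, the smallest that 4 against 4 samples allow. The same exact test gave p = 0.0571 for C3 and Cr1l and p = 0.229 for Serping1.

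The rest of the pathway was examined with 40 further genes listed by role. Of these, 7 were called higher and 11 lower, so 18 of 40 were called, which is about the 44.1% of all rows. At least 2-fold were 2 of the higher and 7 of the lower, and the median difference was 0.03 log2 units. Counts by role rest on few genes each and were not tested against that background. On all 8 arrays 14 of the 40 lay below the lowest array median, including the lectin pathway genes Masp1, Masp2, Mbl2, Fcna and Fcnb, the pore components C8a, C8b, C8g and C9, and the soluble regulators Cfi and C4bp. Of the 7 called higher, 4 (Mbl2, Fcnb, C8g and C9) were such dim genes with differences below 0.4 log2 units. The Y-linked genes, taken as background, were also higher in SP, by 0.12 (Ddx3y), 0.19 (Kdm5d) and 0.18 (Uty). Of these, Kdm5d was called (adjusted p = 0.0497 by limma).

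Recognition molecules did not move as a group. The 3 chains of C1q, which binds antibody on a target, were not called, with differences of 0.02 for C1qa, 0.13 for C1qb and -0.30 for C1qc (adjusted p = 0.963, 0.815 and 0.633 by limma). The proteases C1ra and C1s1 were not called either (0.12 and -0.67). Of the 13 genes, 2 were called higher and 2 lower, none at least 2-fold. Properdin (Cfp), which stabilises the alternative convertase and is stored by neutrophils, averaged 11.29 ± 0.66 over PBS arrays and 10.61 ± 0.56 over SP arrays (SD, n = 4), without a call (adjusted p = 0.156 by limma).

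Among terminal components, Hc, which encodes C5, was 8.01-fold lower in SP (8.68 ± 0.53) than in PBS (11.68 ± 0.31; SD, n = 4 a group, adjusted p = 7.24e-05 by limma), and C6 fell 4.93-fold. C7 was not called (-0.86, adjusted p = 0.229 by limma). Among the 7 other soluble regulators, 5 fell and none rose. Cpn1, a carboxypeptidase subunit that inactivates anaphylatoxins, was 5.56-fold lower, Clu, which binds the nascent pore, 2.28-fold, and Vtn, which does the same, 2.09-fold. The membrane regulator Cd46 was not called (-0.06, adjusted p = 0.685 by limma).

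Of the 8 receptors, 3 were called higher and 1 lower. C3ar1, the receptor for C3a, was 4.86-fold higher (8.05 ± 0.55 and 10.33 ± 0.94, SD, n = 4, adjusted p = 0.00501 by limma) and Itgax, a subunit of complement receptor 4, was 2.39-fold higher. C5ar1, the C5a receptor of neutrophils, had a difference of 0.50 that was not called (adjusted p = 0.101 by limma). Itgb2, the shared integrin chain, differed by 0.08 (0.652). Cr2, a B cell receptor for C3 fragments, was lower by -0.65 log2 units (0.00947).

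**Figure D3:**
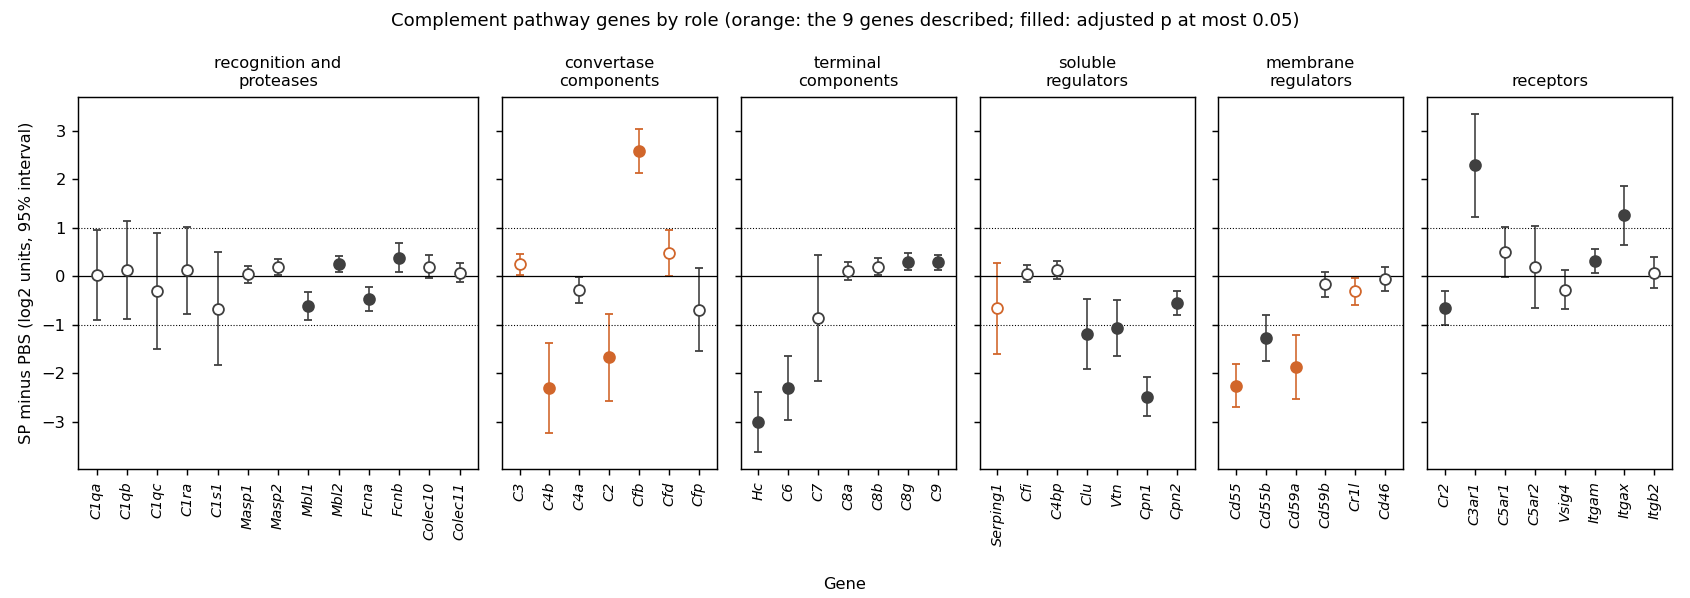
SP minus PBS difference (y axis, log2 units, with 95% intervals by limma) of 48 of the 49 complement genes (x axis) in panels by role, with the 9 genes described in orange, the other 39 in grey and filled symbols where the adjusted p was at most 0.05. Convertase components spread in both directions, from Cfb at 2.58 to C4b at -2.31, while calls among regulators, soluble and membrane, are all on the lower side.

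Array medians were lower in SP (5.78 to 5.91) than in PBS (6.06 to 6.20). Arrays correlated across rows at 0.970 to 0.997 within groups and 0.857 to 0.947 between them, and the second principal component (9.16% of variance) set SP replicate 3 (-51.4) apart from the other SP arrays (16.2 to 26.8). SP replicate 3 was the lowest SP array for 6 of the 9 genes (C3, C2, Cfb, C4b, Serping1 and Cr1l) and the highest for Cfd and Cd55. Among the 40 further pathway genes it was the lowest SP array for 13 and the highest for 20. Without it, the same 5 genes kept their calls and C3 gained one.

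Marker lists of other cell types also differed between SP and PBS. As log2 of the summed level, neutrophil markers lay at 16.18 to 16.37 in PBS and 15.72 to 16.44 in SP (3 of 11 measured genes called lower, none higher). Mesothelial markers lay at 13.13 to 13.43 in PBS and 8.86 to 10.71 in SP (5 of 5 called lower), with Upk3b lower by -4.31. Fibroblast markers lay at 12.48 to 13.02 in PBS and 10.74 to 12.78 in SP (2 of 7 called lower, Dcn and Bgn). The other 5 fibroblast markers were not called, and 3 of them had positive differences (Pdgfra 0.92, Col1a1 0.36, Lum 0.22). The median difference of the fibroblast list was -0.38. Ciliated (5 of 5), club (4 of 4), alveolar type 1 (4 of 5), alveolar type 2 (6 of 8), endothelial (6 of 7) and B cell (6 of 6) markers were also called lower. SP replicate 3 was the lowest SP array for C4b, C2 and Serping1, and also for C3, Cfb and Cr1l. It was the lowest SP array in summed level for 9 of the 14 lists. These were both alveolar types, ciliated, endothelial, fibroblast (10.74, against 11.47 to 12.78), mesothelial (8.86, against 10.20 to 10.71), adipocyte, monocyte and B cell. For neutrophil markers it was the highest of all 8 arrays (16.44). SP replicate 4 was the highest SP array for C4b, C2, Serping1 and Cd59a, and also for Cfb, which rose. It was the highest for 8 of the 14 lists, namely both alveolar types, club, endothelial, fibroblast, mesothelial, alveolar macrophage and platelet. Their part in the falls was not tested.

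Monocyte and interstitial macrophage markers were higher in summed level, at 12.01 to 12.96 in PBS and 13.38 to 13.88 in SP. Of 8 genes, 5 were called higher, with Cd68 higher by 1.32 log2 units, and 1 lower, Mrc1 (-2.70). Csf1r (0.73, adjusted p = 0.0547 by limma) and Cx3cr1 (-0.12) were not called. Cfb and C3ar1 were also higher in SP. Among SP arrays these 2 genes were highest on replicate 4, and the summed level on replicate 1. Alveolar macrophage markers lay at 12.99 to 13.71 and 12.85 to 13.37 (2 of 9 called higher, 6 lower). Their summed levels overlapped, though the median difference of the list was -1.48. The 2 called higher were Chil3 (0.97) and Itgax (1.25), the same Itgax row as among the receptors. Adipocyte markers, listed because fat cells make factor D, lay at 11.12 to 11.30 in PBS and 11.50 to 11.98 in SP. Among SP arrays they were lowest on replicate 3, where Cfd was highest. Of 6 genes, 2 were called higher, Pnpla2 (0.76 log2 units) and Adipoq (0.29), and 1 lower, Cidec (-1.89). Pnpla2 was the brightest of the list on every array, so the summed level mostly follows it. Plin1 and Lep were no higher on any array than the top Y-linked value. T cell (1 of 6 called higher) and platelet (2 of 6 called lower) markers completed the lists. In each list apart from the adipocyte list, every measured gene exceeded the top Y-linked value on at least 1 array. The part of these cells in the results was not tested.

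**Figure D4:**
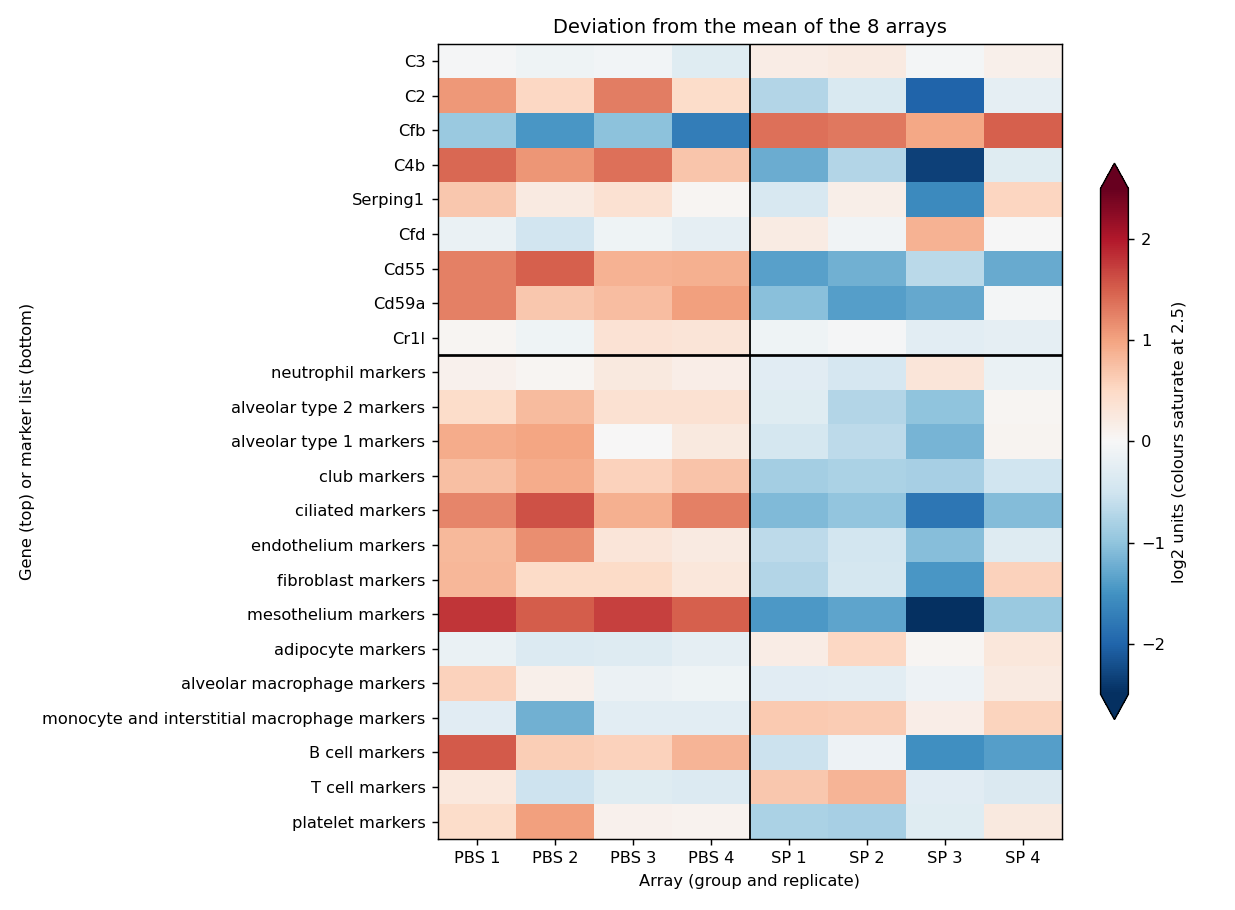
Deviation of each array (x axis) from the mean of the 8 arrays, in log2 units by colour (red higher, blue lower, saturated at 2.5), for the 9 genes (above the line) and for the log2 summed level of 14 marker lists (below it). Among the SP arrays, C3, C2, Cfb, C4b, Serping1, Cr1l and 9 of the 14 marker lists are lowest on replicate 3. Cfd, Cd55 and the neutrophil list are highest there.

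For each of the 9 genes, the genes with the most similar profile were sought among 19835 other symbols by Pearson's r over the 8 arrays, as a description. They were Klhl6 for Cfb, Aplnr and Kcnmb2 for Cd55, Smc3 and Pcolce for C4b, P3h4 and Adgrd1 for C2, and Nrep and Ociad1 for Cd59a. For genes that were not called they were Puf60 and Ly6c1 for C3, Ppp1r7 and Cops6 for Serping1, Gm11541 and Sox14 for Cfd, and Aatk and Gab3 for Cr1l. Coefficients lay between 0.977 and 0.997, and with the group means removed between 0.897 and 0.994. All points share the difference between the 2 groups and the same 8 arrays.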

How the data were processed

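Expression was measured in 8 samples of lung neutrophils, 4 PBS and 4 SP, on Affymetrix Mouse Gene 1.1 ST arrays. As its methods tell, the authors summarised probe signals by RMA, which corrects background, equalises the distributions of the arrays (quantile normalization) and combines the probes of a gene by median polish; probes were also adjusted for their sequence. The deposited values are log2 expression, relative within an array, with no depth; the number of arrays limits precision. The labels name Expression Console, RMA and Partek. No value column was left out. A gene of the pathway list and a gene of similar profile are not reported here by name.

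Rows were named through RefSeq accessions (GRCm38.p6 table), which gave 19915 of 24625 rows a symbol. Where a symbol had several rows, the row with the highest mean was taken; no gene of the 9 had several. Rows were compared with limma (version 3.58.1, R 4.3.3; lmFit and eBayes, no covariates, two-sided), adjusted over all rows, with thresholds of 0.05 and, as in the study, 2-fold. The genes, lists and tests were chosen with earlier results of these data known. Pathway genes were named where called at 2-fold, where bright in their role or, after their values were seen, as relatives of a gene described. Of the marker lists, genes bright in lists set beside a result were named. After their values were seen, others were named that were called, went against their list or lay at background. In data simulated for the 24625 rows from their PBS means and within-group spreads, limma recovered 76% of 100 rows changed by 1 log2 unit and 94% of 100 changed by 2, with 10 false calls. Only these rows were changed, and noise was independent between rows. In the real data 44.1% of rows were called, so these rates need not carry over. Python 3.11.15 drew the figures.

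Alternatives were the methods' ANOVA, a robust prior with an intensity trend, a replicate block, array weights, arrays centred on their medians, another quantile normalization, leaving out dim rows, 1 row per symbol and leaving out each array.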

Additional observations from a re-analysis of the deposited data

How the results depend on the processing

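The calls and directions of Cfb, C2, C4b, Cd55 and Cd59a held under all alternatives, the study's one-way analysis of variance included, as did the lack of a call for Serping1. C3 was called with array weights (0.34) and centred arrays (0.53), and lay between 0.19 and 0.30 without any 1 array. Cfd was called with the replicate block (0.48, adjusted p = 0.0486 by limma), array weights (0.31) and centred arrays (0.76). Cfd was not fitted with dim rows left out, being one of them. Cr1l was called with array weights (-0.34) and another quantile normalization (-0.43), and lay between -0.40 and -0.25 without any 1 array. The number of the 9 genes called higher was 2 with the replicate block, 3 with array weights and 3 with centred arrays, and 1 to 2 without any 1 array. Of the 49 pathway genes, 8 were called higher, but 19 with centred arrays, 3 when dim rows were dropped, 4 under the other quantile normalization and 5 to 9 without any 1 array. Over all rows, centred arrays gave 18255 calls, 2375 of them at least 2-fold higher, against 10860 and 1568; the median difference over rows was then 0.38 in place of 0.10. Centring moved the shift of neutrophil markers to 0.0036 from -0.28, of club markers to -1.20 from -1.48 and of adipocyte markers to 0.80 from 0.52.

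Deviations of same-numbered samples correlated at 0.016, 0.030, 0.35 and -0.27. The value of 0.35, for replicate 3, was the highest of any SP and PBS pair. PBS replicate 1 correlated best with SP replicate 4 (0.25). These few correlations cannot decide whether replicate numbers pair the samples. The replicate block gave 9842 calls over all rows and changed no other call among the 9 genes. Values near the Y-linked level, as for Cfd, limit what a fold change can show.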
